A study of Mus musculus with 18 samples.

Results

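The transcripts described here are those of 35 mouse genes of glycolysis, glucose uptake and pyruvate entry, among 28096 genes counted in each RNASeq library of splenic B cells. They were chosen by name, as the rows whose Entrez number is that of each listed gene symbol, and the rule itself uses no measured value. The libraries came from WT mice and from *Ubqln1*-/- mice of the C57BL/6 N strain, at least 8 weeks old. The *Ubqln1*-/- mice lacked exon 2 of *Ubqln1* in every cell, because the deletion was made in embryonic stem cells before the mice were bred. B cells isolated from the spleen were left unstimulated (resting), stimulated through the B-cell receptor (BCR) with F(ab)2 anti-IgM at 10 μg/mL, or given LPS from E. coli K12, a ligand of TLR4, at 20 μg/mL, in each case for 4 hr. Each of the 6 groups had 3 libraries, which the study describes as independent experiments. Wells of 1 experiment were pooled before RNA purification. The labels do not say how many mice gave the cells of a library.

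Glycolysis breaks glucose down to pyruvate in the cytosol. Glucose enters through transporters of the SLC2A family, is trapped by hexokinases and is committed to the pathway by phosphofructokinase, whose activity the PFKFB enzymes set through fructose-2,6-bisphosphate. Pyruvate is either reduced to lactate by lactate dehydrogenase and exported by monocarboxylate transporters, or carried into the mitochondrion by the MPC1 and MPC2 carrier and oxidized by pyruvate dehydrogenase, which the PDK kinases inhibit. Resting B cells are small and metabolically quiet, and activated B cells are known to take up more glucose as they grow. The comparisons ask which of these steps moved at the mRNA level within 4 hr of BCR or TLR4 stimulation, and whether they moved differently without *Ubqln1*.

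RefSeq promoter windows (GRCm38.p6, 250 bases before to 50 bases after a transcription start) were found for 34 of the 35 genes, all but *Slc2a3*. They were searched on both strands for CACGTG, the E-box read by MYC and related factors, and for ACGTG, the core of the hypoxia response element, which is contained in CACGTG. A window with CACGTG was present for 6 of the 34 genes (17.6%), against 11.8% of the 10067 tested genes that have a promoter in the table and 8.09% of all 27025 genes in it. The shorter ACGTG was present for 18 of 34 (52.9%), against 29.2% and 21.8%. A gene is counted if any of its windows matches, and some of the 34 genes have several windows. The percentages therefore also depend on the number of windows per gene, which was not matched. Among genes that rose after anti-IgM in WT cells CACGTG was found for 3 of 18 (*Ldha*, *Pfkfb3* and *Slc16a1*). It was found for 3 of 9 that fell (*Pdk2*, *Pfkfb2* and *Pfkm*) and for 0 of 5 that were not called. In the same order ACGTG was found for 11 of 18, 5 of 9 and 2 of 5. These shares were not counted over all tested genes that rose or fell, so no link to the response is drawn from them. A match is a description of the sequence and not evidence of binding. The windows of 4 genes with some of the largest changes are printed 5′ to 3′ on the strand of the gene, with ACGTG and its reverse complement CACGT in capitals. *Slc16a1* (chr3:104638414-104638713, plus strand) and *Ldha* (chr7:46845554-46845853, plus strand) rose and hold CACGTG, *Hk2* (chr6:82774405-82774704, minus strand) rose and holds the shorter letters only, and *Pdk2* (chr11:95041322-95041621, minus strand) fell and holds CACGTG.
*Slc16a1*: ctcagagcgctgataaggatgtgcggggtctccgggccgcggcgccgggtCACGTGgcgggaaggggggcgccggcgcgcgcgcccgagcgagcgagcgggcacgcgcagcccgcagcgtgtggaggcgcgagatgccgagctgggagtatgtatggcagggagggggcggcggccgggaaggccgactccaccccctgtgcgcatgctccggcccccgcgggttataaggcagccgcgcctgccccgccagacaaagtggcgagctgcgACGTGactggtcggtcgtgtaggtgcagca
*Ldha*: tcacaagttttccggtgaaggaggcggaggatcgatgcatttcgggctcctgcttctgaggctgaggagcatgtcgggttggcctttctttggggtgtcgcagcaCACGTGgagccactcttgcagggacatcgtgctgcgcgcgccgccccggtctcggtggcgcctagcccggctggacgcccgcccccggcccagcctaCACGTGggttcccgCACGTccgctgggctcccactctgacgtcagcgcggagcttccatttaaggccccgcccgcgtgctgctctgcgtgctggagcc
*Hk2*: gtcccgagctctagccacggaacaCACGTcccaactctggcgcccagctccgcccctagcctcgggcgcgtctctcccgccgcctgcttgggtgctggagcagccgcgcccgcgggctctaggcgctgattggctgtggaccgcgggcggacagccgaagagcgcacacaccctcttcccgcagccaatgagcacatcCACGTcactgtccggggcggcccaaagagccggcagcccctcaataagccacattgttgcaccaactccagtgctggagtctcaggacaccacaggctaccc
*Pdk2*: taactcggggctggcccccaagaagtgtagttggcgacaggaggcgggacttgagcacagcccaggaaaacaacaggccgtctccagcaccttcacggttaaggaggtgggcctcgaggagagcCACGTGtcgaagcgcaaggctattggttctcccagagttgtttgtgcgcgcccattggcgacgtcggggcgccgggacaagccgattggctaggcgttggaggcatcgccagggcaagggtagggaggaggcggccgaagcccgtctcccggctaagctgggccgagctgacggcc
*Ldha* and *Pdk2* each have another RefSeq window, and neither of those holds ACGTG on either strand. Not every gene with a large change holds these letters. The windows of *Pfkp* and *Eno2*, which rose, and of *Pdk1*, which fell, hold no ACGTG on either strand and so no CACGTG.

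The counts of all genes summed to between 15368941 and 41072854 per library (median 23257531), and every WT LPS library was deeper than every *Ubqln1*-/- LPS library. *Ubqln1* itself was at 62.3 to 92.0 RPKM (reads per kilobase of transcript, scaled to library size and computed here from the counts) in the 9 WT libraries and at 24.8 to 34.8 in the 9 *Ubqln1*-/- libraries, where the deletion removes exon 2 and the count is over the whole gene. The libraries carried the markers of B cells: *Cd79a*, which encodes a signalling chain of the BCR, was at 953 to 1082 RPKM in resting, 252 to 351 in anti-IgM-treated and 558 to 727 in LPS-treated WT cells. Its partner *Cd79b* was at 1726 to 1887 RPKM in resting, 600.4 to 761 in anti-IgM-treated and 975 to 1255 in LPS-treated WT cells, so both were lower in every stimulated than in every resting WT library. Of 6 T cell markers, 5 were counted, and without *Lck* they summed to 0.184 to 0.587 RPKM in all 18 libraries. *Lck* ran from 19.9 to 25.8 RPKM in resting and from 52.9 to 91.5 in anti-IgM-treated WT cells. The 6 myeloid markers summed to 11.0 to 16.9 RPKM in resting, 6.64 to 9.44 in anti-IgM-treated and 4.56 to 6.09 in LPS-treated WT cells, so they were lower in every stimulated than in every resting WT library, and the part of this in the decreases below was not tested. NK cell markers summed to at most 0.359 RPKM, platelet markers to at most 4.19 and erythroid markers to at most 5.00.

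Of the 35 genes, 33 passed the expression filter and were tested, together with all other genes (14161 in all), with edgeR's quasi-likelihood test. A gene is said to have changed where its Benjamini-Hochberg adjusted p over the 14161 genes was under 0.05. The remaining genes, *Ldhb* and *Pdk4*, had only 5 and 9 reads in all 18 libraries together. After anti-IgM in WT cells 28 of the 33 changed, 18 upward and 10 downward, against a background of 64.6% of all tested genes (32.4% upward and 32.2% downward). After LPS in WT cells 22 changed, 12 upward and 10 downward, against 61.2% of all genes (31.2% and 30.1%). The median log2 fold change of the 33 was 0.35 after anti-IgM and 0.15 after LPS, with a median of −0.01 over all genes in both. At the thresholds of the study, an absolute log2 fold change over 2 and an adjusted p under 0.001, 2 of 33 passed after anti-IgM (*Slc16a1* and *Hk2*; background 3.76%) and the same pair passed after LPS (background 1.8%). The anti-IgM and LPS comparisons share the 3 resting libraries.

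Added together, the 35 genes reached 1925, 2114 and 2169 CPM (counts scaled to a common library size) in the resting WT libraries. They reached 2919, 3178 and 3295 CPM after anti-IgM and 2463, 2671 and 2505 after LPS. The 3 groups did not overlap. Such a sum is weighted toward the genes with the most reads, and 10 of the 33 tested genes fell after anti-IgM. No such sum was made for other sets of genes. The values are shares of each library, and more or fewer cells with a transcript cannot be told apart from more or less of it in each cell. Genes of the same enzyme family often moved in opposite directions, and the families are therefore described one by one.

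**Figure D1:**
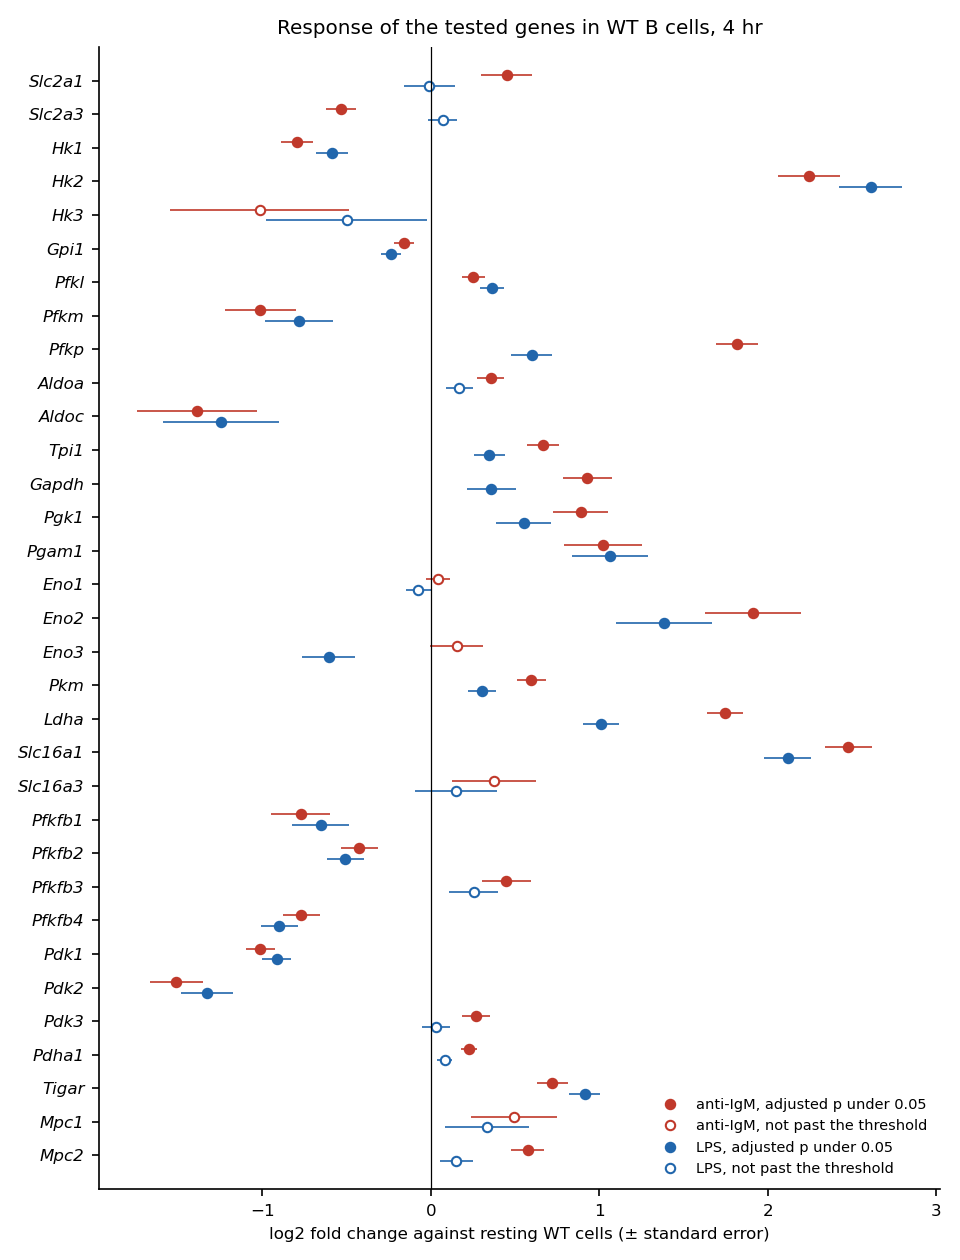
Log2 fold change (horizontal axis, ± standard error) of the 33 tested genes, listed from glucose uptake at the top to pyruvate entry at the bottom, in WT B cells 4 hr after anti-IgM (red) or LPS (blue) against resting WT cells, 3 libraries per group. Filled points have an adjusted p under 0.05. *Slc16a1* and *Hk2* lie farthest to the right with both stimuli, *Pdk2* and *Aldoc* farthest to the left, and *Pfkp* shows a wide gap between the stimuli.

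The 2 glucose transporter transcripts moved in opposite directions after anti-IgM and did not pass after LPS. *Slc2a1*, which encodes the ubiquitous transporter GLUT1 (chromosome 4, 119108745 to 119137330), was at 22.3, 25.4 and 32.3 RPKM in the resting WT libraries, 30.7, 35.9 and 43.2 after anti-IgM and 25.1, 26.4 and 28.2 after LPS. The resting and anti-IgM ranges overlapped. The log2 fold change was 0.45 after anti-IgM (SE 0.15, edgeR adjusted p = 0.015), which lost its call without WT resting replicate 1 or WT anti-IgM replicate 3, and −0.0089 after LPS (SE 0.15, edgeR adjusted p = 0.965). *Slc2a3*, which encodes the high-affinity transporter GLUT3, was at 11.0, 9.83 and 11.2 RPKM at rest. It fell to 7.02, 6.83 and 8.32 RPKM after anti-IgM (log2 fold change −0.53, SE 0.089, edgeR adjusted p = 5.37e-05) and stayed at 11.4, 10.5 and 11.8 after LPS (log2 fold change 0.07, edgeR adjusted p = 0.504). *Slc2a1* made up 71.1% ± 3.74 (SD, n = 3) of the summed RPKM of this pair at rest, 83.1% ± 1.49 (SD, n = 3) after anti-IgM and 70.3% ± 1.43 (SD, n = 3) after LPS.

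The hexokinases, which phosphorylate glucose on entry, exchanged places. *Hk2*, the inducible form of muscle and tumors (chromosome 6, 82725025 to 82774454), was at 3.30, 4.76 and 3.93 RPKM in resting WT cells, 15.5, 21.9 and 19.7 after anti-IgM and 23.8, 30.0 and 20.0 after LPS. Every stimulated library lay above every resting library. *Hk2* rose 4.73-fold after anti-IgM (log2 fold change 2.24, SE 0.19, edgeR adjusted p = 2.3e-08) and 6.11-fold after LPS (log2 fold change 2.61, SE 0.19, edgeR adjusted p = 1.03e-08). *Hk1*, the constitutive form (chromosome 10, 62268855 to 62379920), was at 21.6, 19.2 and 20.5 RPKM at rest. It fell to 12.6, 10.6 and 12.1 RPKM after anti-IgM and to 14.5, 11.8 and 14.5 after LPS, again without overlap. These were log2 fold changes of −0.80 (SE 0.10, edgeR adjusted p = 1.63e-06) and −0.59 (SE 0.095, edgeR adjusted p = 4.9e-05). The shares of isozymes given here and below are descriptions and were not tested. Per length, *Hk2* accounted for 13.2%, 19.6% and 15.9% of hexokinase transcripts in the resting WT libraries. It accounted for 55.0%, 67.2% and 61.7% after anti-IgM and for 62.0%, 71.5% and 57.5% after LPS. *Hk3*, a form of myeloid cells, was at 0.0395 to 0.274 RPKM in every WT library and did not pass the test with either stimulus (edgeR adjusted p = 0.0234 after anti-IgM with the replicate number as a block). Of the transcript windows of *Hk1*, 1.64% are shared with the antisense gene *Hk1os*, and the library kit did not record strand.

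*Gpi1*, whose enzyme turns glucose-6-phosphate into fructose-6-phosphate, moved by less than any other gene that passed. It was at 44.6, 49.4 and 50.1 RPKM at rest, 40.6, 42.8 and 45.6 after anti-IgM and 38.2, 40.4 and 43.8 after LPS. The resting and anti-IgM libraries overlapped, and the log2 fold changes were −0.16 (edgeR adjusted p = 0.0287) and −0.24 (edgeR adjusted p = 0.00276). The anti-IgM call was lost in the fit of the compared groups alone, with no expression filter, and without any one of WT resting replicates 2 and 3 and WT anti-IgM replicates 1 and 2.

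Phosphofructokinase, the committed step, showed the clearest difference between the stimuli. *Pfkp*, the platelet-type subunit (chromosome 13, 6579874 to 6649060), was at 18.3, 23.2 and 23.8 RPKM at rest, 71.6, 83.6 and 75.0 after anti-IgM and 27.4, 38.3 and 33.1 after LPS. The 3 groups were in separate ranges, with LPS only a little above rest. Its log2 fold change was 1.82 after anti-IgM (SE 0.13, edgeR adjusted p = 4e-09) and 0.60 after LPS (SE 0.12, edgeR adjusted p = 0.000498). *Pfkl*, the liver-type subunit, went from 30.7, 34.5 and 33.7 RPKM at rest to 36.3, 42.2 and 39.4 after anti-IgM and 42.2, 45.5 and 39.4 after LPS, log2 fold changes of 0.25 (edgeR adjusted p = 0.0048) and 0.36 (edgeR adjusted p = 0.000298). *Pfkm*, the muscle-type subunit, was low at 1.89, 1.34 and 1.65 RPKM and fell to 0.968, 0.621 and 0.813 after anti-IgM (log2 fold change −1.01, edgeR adjusted p = 0.000464) and 1.08, 0.758 and 0.986 after LPS (log2 fold change −0.78, edgeR adjusted p = 0.00306). *Pfkp* therefore made up 35.9%, 39.3% and 40.2% of the phosphofructokinase transcripts per length at rest, 65.7%, 66.1% and 65.1% after anti-IgM and 38.7%, 45.3% and 45.0% after LPS. *Pfkp* and the neighbouring gene *Pitrm1* share 15.4% of the 50-base windows of *Pfkp*, so part of its reads could be of either gene.

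The regulators of that step did not move as one. PFKFB enzymes make and remove fructose-2,6-bisphosphate, and TIGAR removes it. *Pfkfb3*, the form with the strongest kinase activity, was at 17.4, 12.4 and 13.2 RPKM at rest and 21.1, 18.0 and 19.3 after anti-IgM, a change of 0.45 on the log2 scale (SE 0.15, edgeR adjusted p = 0.0129) that lost its call without WT resting replicate 2. After LPS it was at 18.5, 17.0 and 15.7 RPKM and did not pass (edgeR adjusted p = 0.139, or 0.0015 with the replicate number as a block). The other 3 forms fell with both stimuli. *Pfkfb4* went from 11.5, 11.1 and 10.9 RPKM at rest to 7.61, 6.21 and 5.79 after anti-IgM and 5.89, 5.53 and 6.52 after LPS (log2 fold changes −0.77 and −0.90, edgeR adjusted p = 1.2e-05 and 2.71e-06). *Pfkfb1* went from 1.82, 1.97 and 2.17 RPKM to 1.27, 1.12 and 1.09 after anti-IgM and 1.16, 1.17 and 1.48 after LPS (log2 fold changes −0.77 and −0.65), and *Pfkfb2* changed by −0.43 and −0.51 on the log2 scale. *Pfkfb3* held 43.3% to 50.0% of the PFKFB transcripts per length in resting WT cells, 64.0% to 67.3% after anti-IgM and 59.6% to 65.6% after LPS. *Tigar* rose, from 4.24, 4.92 and 4.49 RPKM at rest to 7.20, 7.89 and 7.46 after anti-IgM (log2 fold change 0.72, edgeR adjusted p = 2.61e-06) and 9.05, 8.84 and 7.86 after LPS (log2 fold change 0.91, edgeR adjusted p = 2.72e-07).

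In the lower steps of the pathway the abundant genes rose modestly or did not pass, while the less abundant isozymes *Aldoc* and *Eno2* moved more. *Aldoa*, the aldolase of most tissues and the highest of the 35 transcripts per length at rest, was at 249, 291 and 301 RPKM, and at 349, 342 and 385 after anti-IgM (log2 fold change 0.35, SE 0.081, edgeR adjusted p = 0.00101) and 296, 319 and 330.0 after LPS (log2 fold change 0.17, edgeR adjusted p = 0.0805, or 0.00903 with the replicate block). *Aldoc*, the brain form, fell from 7.51, 5.27 and 4.33 RPKM at rest to 2.81, 1.60 and 2.08 after anti-IgM (log2 fold change −1.39, edgeR adjusted p = 0.0026) and 3.04, 2.03 and 2.10 after LPS (log2 fold change −1.25, edgeR adjusted p = 0.00493). *Tpi1*, triose phosphate isomerase, went from 30.7, 39.6 and 38.0 RPKM to 50.1, 60.1 and 61.9 after anti-IgM and 44.6, 48.7 and 44.8 after LPS (log2 fold changes 0.67 and 0.35). Of the enolases, *Eno1*, the form of most tissues, was at 32.8, 38.5 and 37.5 RPKM at rest, 35.7, 36.5 and 39.8 after anti-IgM and between 32.9 and 35.5 after LPS, and did not pass (edgeR adjusted p = 0.637 and 0.391). *Eno2*, the neuronal form, rose from 1.19, 1.33 and 0.795 RPKM to 3.65, 5.36 and 3.54 after anti-IgM (log2 fold change 1.91, SE 0.29, edgeR adjusted p = 1.72e-05) and 2.70, 3.77 and 2.20 after LPS (log2 fold change 1.39, SE 0.29, edgeR adjusted p = 0.000483), and still made up at most 9.23% of enolase transcripts per length in any WT library. Of the 50-base windows of *Eno1*, 49.5% also occur in other genes, so the enolase shares are uncertain. *Eno3*, the muscle form, fell after LPS from 18.0, 16.9 and 13.1 RPKM to 12.4, 9.85 and 9.26 (log2 fold change −0.61, edgeR adjusted p = 0.00326), and was at 20.1, 16.1 and 17.1 after anti-IgM (edgeR adjusted p = 0.404).

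*Gapdh*, *Pgk1* and *Pgam1*, whose enzymes carry out the next steps from glyceraldehyde-3-phosphate to 2-phosphoglycerate, stood at 2.02 to 8.07 RPKM (*Gapdh* and *Pgk1*) and 0.51 to 1.52 RPKM (*Pgam1*) over the WT libraries, far below their neighbours in the pathway. Of the 50-base windows of their transcripts, the length of the reads, 58.4% (*Gapdh*), 68.0% (*Pgk1*) and 41.5% (*Pgam1*) also occur in other annotated genes, mostly processed copies. Their levels therefore cannot be compared with those of other genes. Whether the sharing lowered their counts was not tested. Their changes were upward: the log2 fold change after anti-IgM was 0.93 for *Gapdh* (edgeR adjusted p = 2.56e-05), 0.89 for *Pgk1* (edgeR adjusted p = 0.00014) and 1.02 for *Pgam1* (edgeR adjusted p = 0.00101). After LPS they were 0.36, 0.55 and 1.06. The LPS call of *Gapdh* (edgeR adjusted p = 0.0405) was lost with DESeq2, with total count normalization, with no filter, in the fit of the compared groups alone and without any one of WT resting replicates 1 and 2 and WT LPS replicates 2 and 3. That of *Pgk1* (edgeR adjusted p = 0.00742) was lost in the fit of the compared groups alone. Over 10% of the windows were shared for 12 of the 35 genes. These included *Eno1* (49.5%), *Pfkfb2* (25.0%), *Gpi1* (24.5%), *Pkm* (23.7%) and *Ldha* (10.4%). Among the 22 tested genes with at most 10% shared, 11 rose and 8 fell after anti-IgM in WT cells and 6 rose and 8 fell after LPS, and among the 11 with more, 7 rose and 2 fell after anti-IgM and 6 rose and 2 fell after LPS.

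**Figure D2:**
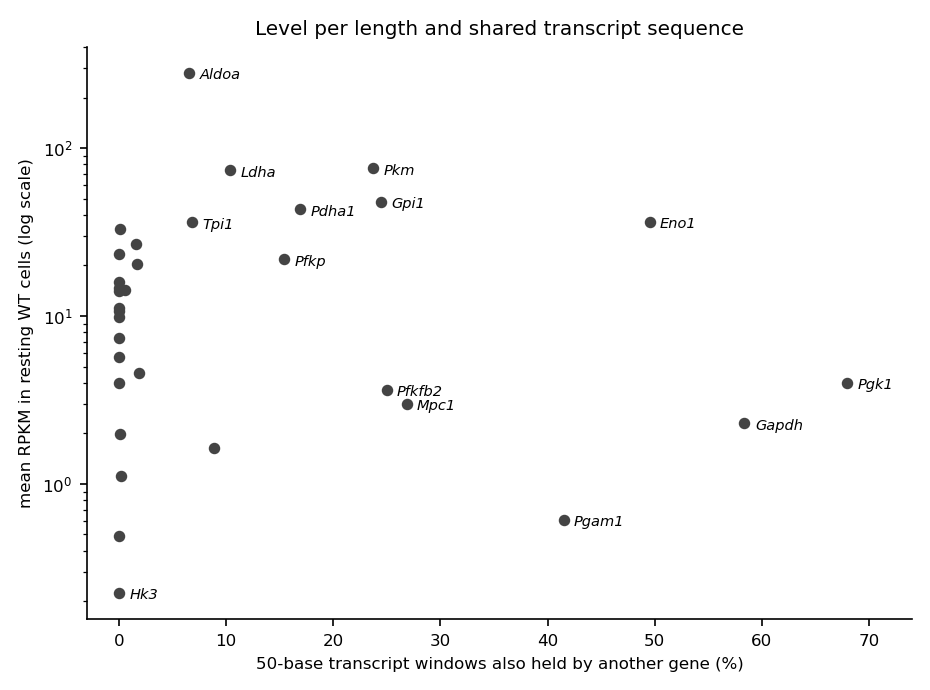
Mean RPKM in resting WT cells (vertical axis, log scale, 3 libraries) of the 33 tested genes against the percentage of the 50-base windows of their transcripts that also occur in another gene (horizontal axis). *Gapdh*, *Pgk1* and *Pgam1* combine a low level with 41.5% to 68.0% of shared windows, while *Aldoa*, at the top, shares 6.57%. *Eno1* shares 49.5% and stands at 36.2 RPKM. Whether shared windows lower the level was not tested.

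The end of the pathway, from pyruvate to exported lactate, held some of the largest changes. *Pkm*, pyruvate kinase, rose from 65.7, 77.5 and 84.2 RPKM at rest to 101, 116 and 127 after anti-IgM (log2 fold change 0.60, SE 0.085, edgeR adjusted p = 1.12e-05) and 88.8, 96.0 and 96.1 after LPS (log2 fold change 0.30, edgeR adjusted p = 0.00532). The counts are per gene and do not separate its M1 and M2 isoforms. *Ldha*, the lactate dehydrogenase subunit that favours lactate formation (chromosome 7, 46842274 to 46855627), was at 61.7, 81.7 and 78.0 RPKM at rest, 222, 256 and 266 after anti-IgM and 142, 168 and 137 after LPS, again 3 separate ranges. It rose 3.36-fold after anti-IgM (log2 fold change 1.75, SE 0.11, edgeR adjusted p = 1.27e-09) and 2.01-fold after LPS (log2 fold change 1.01, SE 0.11, edgeR adjusted p = 4.95e-07). *Ldhb*, the other subunit, had no read in 13 of the 18 libraries, so nearly all lactate dehydrogenase transcripts were those of *Ldha* in every group. *Slc16a1*, which encodes the lactate transporter MCT1 (chromosome 3, 104638664 to 104658462), was at 6.14, 8.69 and 7.40 RPKM at rest, 35.9, 44.8 and 43.7 after anti-IgM and 31.9, 38.2 and 27.0 after LPS. Its rise of 5.57-fold after anti-IgM was the largest among the 33 genes with that stimulus in WT cells (log2 fold change 2.48, SE 0.14, edgeR adjusted p = 5.82e-10), and after LPS it was 4.34-fold (log2 fold change 2.12, SE 0.14, edgeR adjusted p = 4.91e-09). *Slc16a3*, which encodes MCT4, the exporter of strongly glycolytic cells, stayed at 0.397 to 0.747 RPKM over the WT libraries and did not pass with either stimulus.

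At the entry of pyruvate into the mitochondrion, the PDK kinases shifted from *Pdk1* and *Pdk2* toward *Pdk3*. *Pdk2* (chromosome 11, 95026258 to 95041371) fell from 10.0, 9.61 and 9.86 RPKM at rest to 3.60, 3.23 and 3.51 after anti-IgM (log2 fold change −1.51, SE 0.16, edgeR adjusted p = 3.05e-07) and 3.97, 2.95 and 4.87 after LPS (log2 fold change −1.33, SE 0.15, edgeR adjusted p = 1.46e-06), the largest decrease of the 33 with both stimuli. *Pdk1* (chromosome 2, 71873215 to 71903858) fell from 16.1, 13.0 and 14.7 RPKM to 7.17, 7.35 and 7.14 after anti-IgM (log2 fold change −1.01, SE 0.086, edgeR adjusted p = 3.25e-08) and 8.50, 7.05 and 7.63 after LPS (log2 fold change −0.92, SE 0.085, edgeR adjusted p = 1.58e-07). Neither gene shares a window with another gene, and in both no stimulated library reached a resting one. *Pdk3* was at 12.8, 14.0 and 15.2 RPKM at rest, 17.3, 16.0 and 17.4 after anti-IgM (log2 fold change 0.27, edgeR adjusted p = 0.0108, lost without WT resting replicate 1) and 15.2, 12.7 and 15.1 after LPS (edgeR adjusted p = 0.778). Its share of the PDK transcripts per length went from 33.0%, 38.3% and 38.1% at rest to 61.6%, 60.2% and 62.0% after anti-IgM and 55.0%, 56.0% and 54.7% after LPS. *Pdk4* had no read in 12 of the 18 libraries.

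*Pdha1*, the catalytic subunit that these kinases phosphorylate, moved from 42.0, 43.9 and 43.7 RPKM at rest to 47.6, 52.3 and 52.0 after anti-IgM (log2 fold change 0.23, edgeR adjusted p = 0.000401), and was at 45.6, 46.6 and 45.1 after LPS (edgeR adjusted p = 0.14). Of its windows 16.9% are shared, mainly with the overlapping gene *Map3k15*. *Mpc2*, a subunit of the mitochondrial pyruvate carrier, rose from 21.6, 25.7 and 23.3 RPKM to 31.6, 38.3 and 35.5 after anti-IgM (log2 fold change 0.57, SE 0.10, edgeR adjusted p = 6.8e-05), and was at 25.1, 28.4 and 25.1 after LPS (edgeR adjusted p = 0.19). Its partner *Mpc1* was at 2.11 to 3.62 RPKM at rest and 3.03 to 5.08 after anti-IgM, ranges that overlapped (edgeR adjusted p = 0.0977, or 0.0116 with the replicate block), and 26.8% of its windows are shared.

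**Figure D3:**
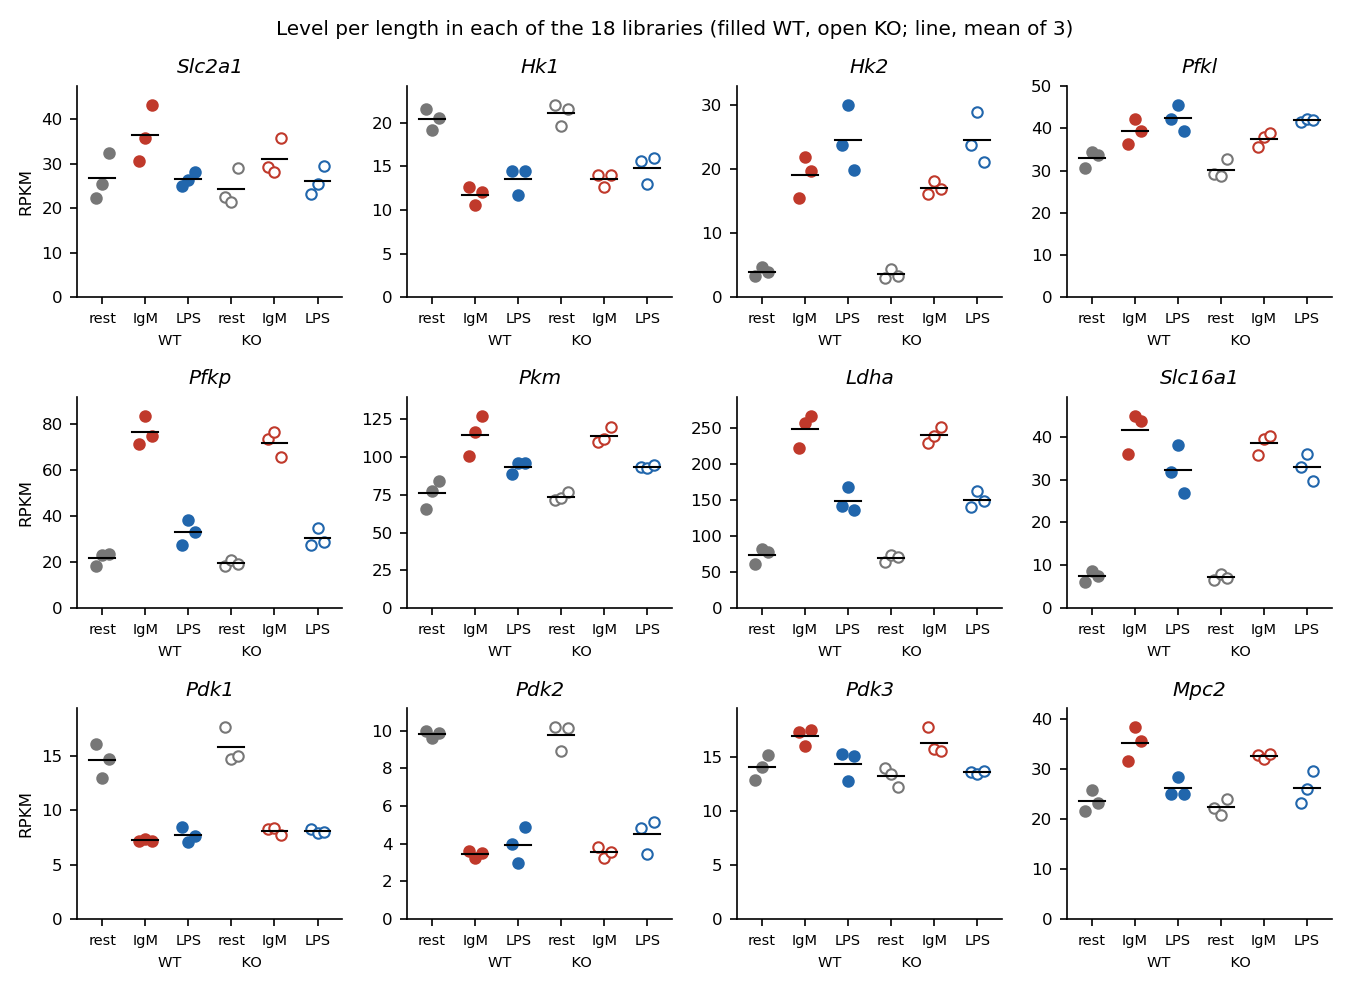
RPKM (vertical axes, from 0) of 12 genes in each of the 18 libraries, in WT (filled points) and *Ubqln1*-/- (KO, open points) B cells at rest, after anti-IgM and after LPS, with a line at the mean of 3. *Hk2*, *Pfkp*, *Ldha* and *Slc16a1* stand above rest and *Hk1*, *Pdk1* and *Pdk2* below it in every stimulated library of both genotypes.

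**Figure D4:**
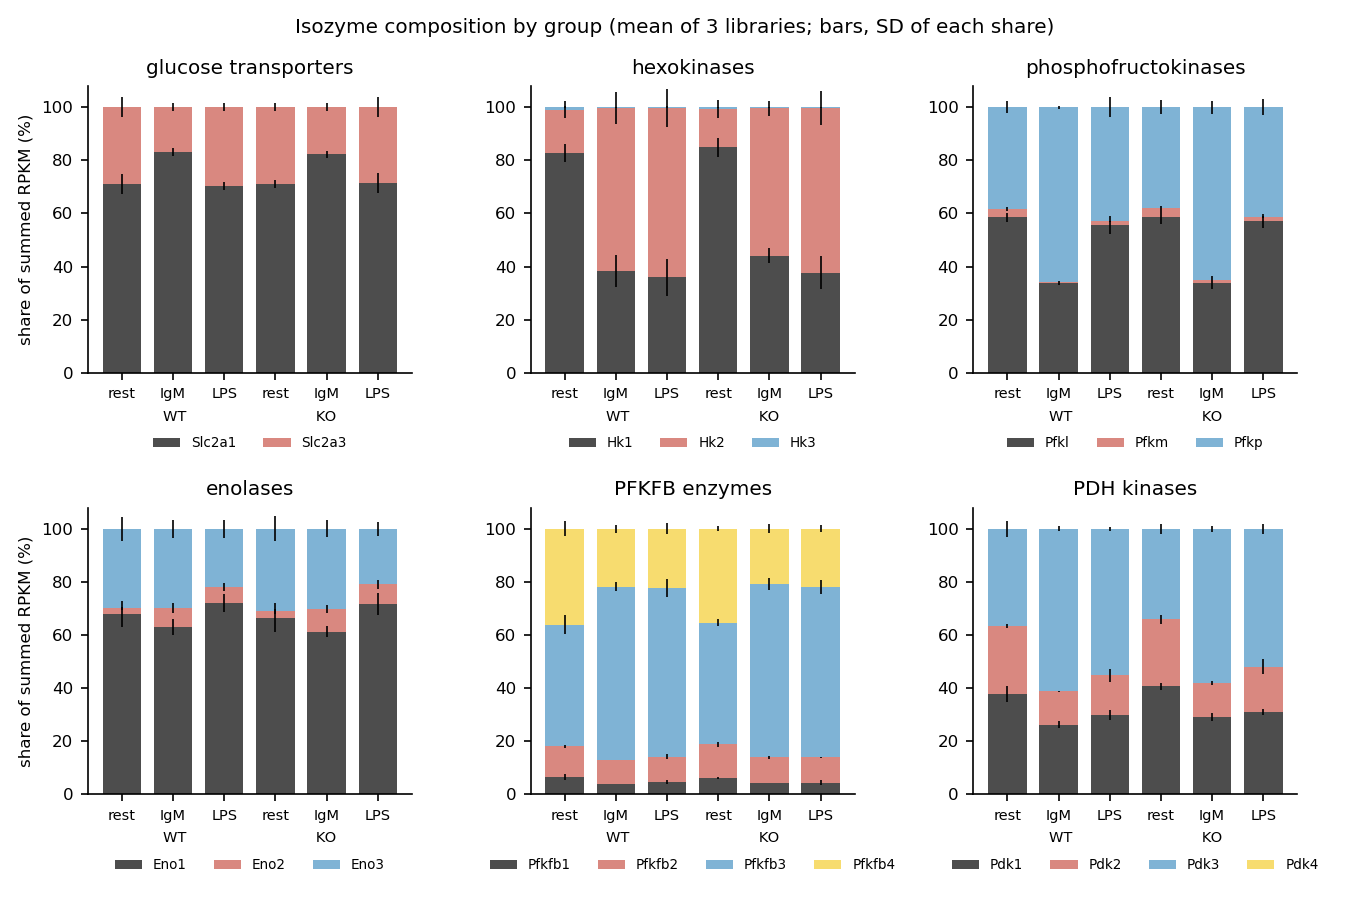
Share of each isozyme in the summed RPKM of its family (vertical axes, %, mean of 3 libraries, error bars SD of each share) for 6 families and 6 groups. *Hk2* goes from 16.3% of hexokinases in resting WT cells to 61.3% after anti-IgM and 63.7% after LPS, while *Pfkp* goes from 38.5% to 65.7% after anti-IgM and 43.0% after LPS. Of the 50-base windows of *Eno1*, 49.5% also occur in other genes, so the enolase shares are uncertain.

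The stimuli were also compared directly. In WT cells 12 of the 33 genes differed between LPS and anti-IgM, against 32.4% of all tested genes. Of these, 11 were lower with LPS (background 15%) and 1 was higher (background 17.4%). With the replicate number as a block in the same fit, 15 were lower and 4 higher. *Pfkp* had the largest difference, with a log2 fold change of −1.22 (SE 0.12, edgeR adjusted p = 6.53e-07) and separate ranges, followed by *Eno3* at −0.76 (SE 0.16, edgeR adjusted p = 0.00111) and *Ldha* at −0.74 (SE 0.10, edgeR adjusted p = 2.86e-05). The single gene that was higher with LPS was *Slc2a3*, at 0.60 (SE 0.088, edgeR adjusted p = 3.92e-05). *Gapdh* (−0.57), *Slc2a1* (−0.46), *Mpc2* (−0.42), *Slc16a1* (−0.36), *Tpi1* (−0.32), *Pkm* (−0.29), *Pdk3* (−0.24) and *Pdha1* (−0.15) were the others that were lower with LPS, as log2 fold changes. *Hk2* was 0.37 higher with LPS on the log2 scale (SE 0.17), which did not pass without the block (edgeR adjusted p = 0.11) and passed with it (edgeR adjusted p = 0.003). The 11 lower genes became 7 without WT anti-IgM replicate 2 or without WT LPS replicate 1, and 5 without WT anti-IgM replicate 3, when *Slc2a1*, *Slc16a1*, *Tpi1*, *Pkm*, *Pdk3* and *Pdha1* lost their calls. *Slc2a1* also lost its call without WT LPS replicate 2, *Pdha1* and *Slc16a1* without WT LPS replicate 3, *Slc16a1* without KO resting replicate 3, KO anti-IgM replicate 2 or KO LPS replicate 1, and *Pdk3* without WT anti-IgM replicate 1, WT LPS replicate 2, KO resting replicate 1 or KO anti-IgM replicate 3. In the fit of the compared groups alone *Slc16a1*, *Pdk3* and *Pdha1* lost their calls, and with no expression filter *Pdk3* and *Pdha1* lost theirs. *Pfkp*, *Eno3*, *Ldha*, *Gapdh* and *Mpc2* kept theirs whichever library was left out. In *Ubqln1*-/- cells 12 of 33 differed, 10 lower and 2 higher with LPS, against 31.3% of all genes (14.5% lower and 16.8% higher), and with the replicate block 14 were lower and 7 higher. There *Pfkp* differed by −1.24 (SE 0.12, edgeR adjusted p = 6.7e-07), *Eno3* by −0.89, *Ldha* by −0.67 and *Slc2a3* by 0.63 on the log2 scale. *Hk2* was the other higher gene (0.53, SE 0.17, edgeR adjusted p = 0.0246), a call that was lost without KO anti-IgM replicate 1 or 3 or KO LPS replicate 2. The number of lower genes, counting any gene gained, was 6 without KO anti-IgM replicate 3 or KO LPS replicate 3, and 5 without KO LPS replicate 1.

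*Ubqln1*-/- B cells were compared with WT cells in each condition. None of the 33 genes differed between genotypes in resting cells (background 0.0565%), after anti-IgM (0.0989%) or after LPS (0.0424%) by edgeR at an adjusted p under 0.05, and DESeq2 and limma with voom likewise called none of them. At an unadjusted p under 0.05 there was 1 gene in resting cells (*Eno1*, log2 fold change −0.17, edgeR unadjusted p = 0.0309, background 4.22%), 1 after anti-IgM (*Hk1*, 0.20, edgeR unadjusted p = 0.0493, background 5.14%) and 0 after LPS (background 3.93%). In resting *Ubqln1*-/- cells *Slc16a1* was at 6.65, 8.03 and 6.98 RPKM, *Hk2* at 2.96, 4.43 and 3.36, *Ldha* at 64.6, 74.1 and 70.3 and *Pfkp* at 18.4, 21.1 and 19.1. After anti-IgM the values in these cells were 35.8, 39.4 and 40.1 RPKM for *Slc16a1*, 16.2, 18.2 and 16.9 for *Hk2*, 229, 239 and 251 for *Ldha* and 73.6, 76.8 and 65.7 for *Pfkp*. The WT and *Ubqln1*-/- ranges of these 4 genes overlapped at rest and after anti-IgM. Among the genes that fell, *Pdk2* was at 10.2, 8.92 and 10.1 RPKM in resting *Ubqln1*-/- cells, 3.84, 3.24 and 3.57 after anti-IgM and 4.86, 3.47 and 5.17 after LPS. *Hk1* was at 22.0, 19.7 and 21.6 RPKM, 14.0, 12.7 and 14.0 and 15.6, 12.9 and 15.9 in the same order, and *Pdk1* at 17.6, 14.7 and 15.0 RPKM, 8.23, 8.41 and 7.71 and 8.27, 7.92 and 7.96. As in WT cells, no stimulated library of these 3 genes reached a resting one. The 95% interval of the difference between genotypes lay within 1.5-fold in either direction for 28 of 33 genes in resting cells, 26 after anti-IgM and 26 after LPS. It was wider for *Aldoc*, *Eno2*, *Hk3*, *Mpc1* and *Slc16a3* in each condition, and for *Pfkm* and *Pgam1* after either stimulus. The share of all tested genes with an interval within this bound was not counted.

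The responses themselves were then set side by side for both genotypes. In *Ubqln1*-/- cells 29 of 33 genes changed after anti-IgM, 20 upward and 9 downward (background 65.3%, 32.9% upward and 32.4% downward), and 22 changed after LPS, 12 upward and 10 downward (background 60.7%, 30.6% and 30.2%). The 18 genes that rose after anti-IgM in WT cells were among the 20 that rose in *Ubqln1*-/- cells, and the 9 that fell there were among the 10 that fell in WT cells. The other risers in *Ubqln1*-/- cells were *Eno1*, whose call was lost without any one of KO resting replicates 1 and 3 and KO anti-IgM replicates 1 and 3, and *Mpc1*, whose call was lost without any one of KO resting replicates 1, 2 and 3 and KO anti-IgM replicates 2 and 3. After LPS 12 genes rose in each genotype, of which 11 were shared, and the 10 that fell were the same genes. *Gapdh* was called in WT cells only and *Aldoa* in *Ubqln1*-/- cells only. With the replicate number as a block, *Gapdh* passed in *Ubqln1*-/- cells (edgeR adjusted p = 0.0426) and *Aldoa* in WT cells (edgeR adjusted p = 0.00903). The overlap of calls between genotypes was not counted over all tested genes, so it is not shown to be particular to these 33. Some of the shared calls in *Ubqln1*-/- cells were close to the threshold. After anti-IgM that of *Slc2a1* was lost with a minimum of 10 counts in every library and without any one of WT resting replicate 2, WT anti-IgM replicate 2, WT LPS replicates 1, 2 and 3, KO resting replicates 1 and 2, KO anti-IgM replicates 1 and 3 and KO LPS replicate 2. That of *Pfkfb3* was lost without KO resting replicate 2 or 3 or KO anti-IgM replicate 1, that of *Pgam1* without KO anti-IgM replicate 2 and that of *Pfkfb1* without KO resting replicate 1. After LPS the call of *Pgk1* was lost with total count normalization, with the minimum of 10 counts and without any one of WT LPS replicates 1 and 3, KO resting replicates 1 and 3 and KO LPS replicates 1 and 2. That of *Gpi1* was lost with no filter and without KO resting replicate 1 or 3 or KO LPS replicate 2, that of *Pfkm* without KO resting replicate 1 or KO LPS replicate 2 or 3, and that of *Aldoc* without KO resting replicate 1. *Slc16a1* changed after anti-IgM by 2.41 on the log2 scale in *Ubqln1*-/- cells, *Hk2* by 2.25, *Ldha* by 1.78, *Pfkp* by 1.88 and *Pdk2* by −1.46. After LPS the same genes changed by 2.19, 2.78, 1.11, 0.64 and −1.13. The difference between the responses, tested as an interaction in edgeR, was past an adjusted p of 0.05 for 0 of 33 genes with either stimulus (background 0%), and for 0 of 33 at an unadjusted p under 0.05 (background 0.989% with anti-IgM and 1.55% with LPS). The anti-IgM response of *Hk2* was 0.0061 higher in *Ubqln1*-/- than in WT cells (95% interval −0.53 to 0.54), that of *Ldha* 0.035 higher (−0.28 to 0.35) and that of *Pfkp* 0.065 higher (−0.30 to 0.43), all on the log2 scale. That of *Slc16a1* differed by −0.065 (−0.47 to 0.34). These intervals lay within 1.5-fold for 23 of 33 genes with each stimulus, again with no count over all tested genes.

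**Figure D5:**
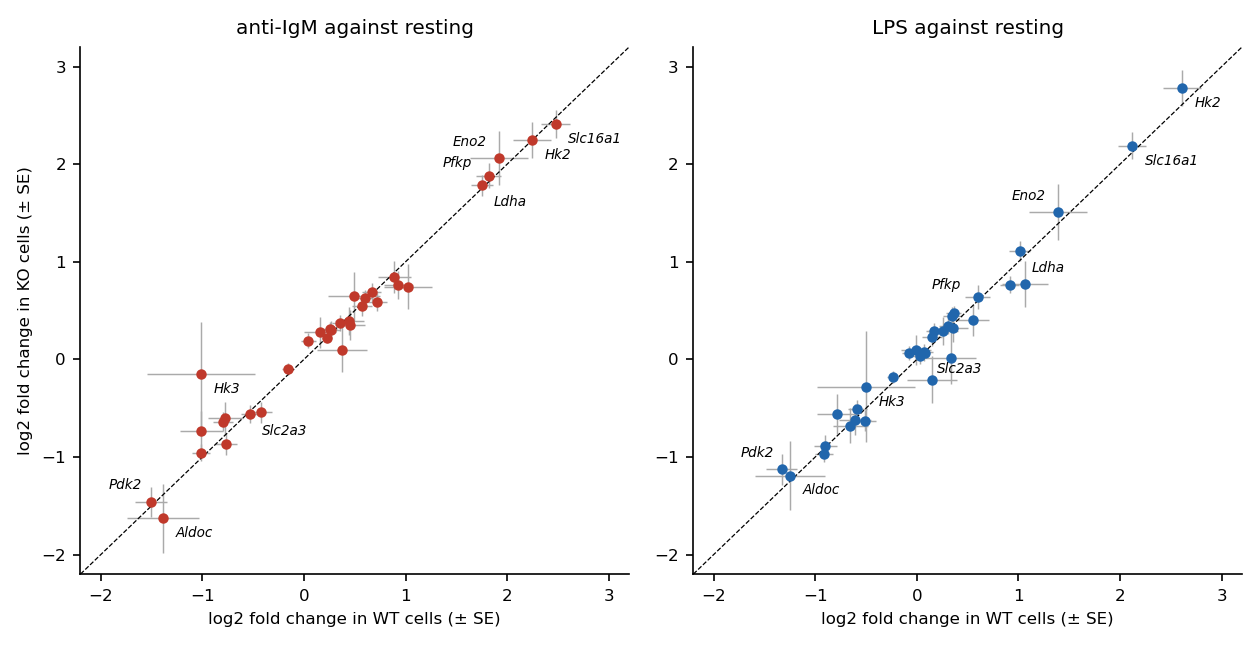
Log2 fold change against resting cells in KO (*Ubqln1*-/-) B cells (vertical axis) against that in WT B cells (horizontal axis) for the 33 tested genes, with standard errors in both directions, for anti-IgM (left) and LPS (right). The dashed line marks equal responses. The genes lie along it, and *Hk3*, which is farthest from it after anti-IgM, has wide errors and 0.0732 to 0.274 RPKM in resting and anti-IgM-treated cells.

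Other genes of the pathway, from a list of 32 that includes minor isozymes, further transporters and the remaining subunits and phosphatases of pyruvate dehydrogenase, were read beside these. Of them 20 were tested, and 8 rose and 9 fell after anti-IgM in WT cells, against 32.4% and 32.2% of all tested genes. After LPS 9 rose and 10 fell, against 31.2% and 30.1%. The median log2 fold change of the list was −0.11 in both comparisons. The other 12 did not pass the expression filter. The genes of this list named below mostly rose and are not a picture of the whole list. Several others changed by more than 1 on the log2 scale in WT cells. Most of those fell, and all of them were at a mean of at most 7.24 RPKM in resting WT cells. *Bsg*, which encodes basigin, the partner that brings MCT1 to the cell surface, went from a mean of 67.2 RPKM at rest to 104 after anti-IgM (log2 fold change 0.63, edgeR adjusted p = 6.72e-06) and 83.8 after LPS (log2 fold change 0.32, edgeR adjusted p = 0.00456). The transporter gene *Slc2a6* separated the stimuli, with a mean of 27.5 RPKM at rest, 16.7 after anti-IgM (log2 fold change −0.72, edgeR adjusted p = 0.000382) and 63.7 after LPS (log2 fold change 1.21, edgeR adjusted p = 1.79e-06). The PDH phosphatase subunits *Pdp1* and *Pdp2*, which act against the PDK kinases, rose by 0.75 and 0.49 on the log2 scale after anti-IgM and by 0.57 and 0.54 after LPS, while the regulatory subunit gene *Pdpr* fell by 0.22 and 0.24. *Dlat*, *Dld* and *Pdhx*, further subunits of the pyruvate dehydrogenase complex, rose by 0.50, 0.39 and 0.36 after anti-IgM and by 0.48, 0.43 and 0.51 after LPS, and *Pdhb* did not pass with either. None of the 20 differed between genotypes at an adjusted p under 0.05.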

How the data were processed

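RNA from splenic B cells of 6 groups, 3 libraries each (18 in all), was prepared by the authors with the TruSeq RNA v2 kit, which does not mark strand, sequenced as single 50-base reads on a HiSeq2500 and aligned to GRCm38 with GSNAP. The authors deposited raw read counts per Entrez gene, the gene widths and RPKM values for each library. How reads matching several genes were counted is not given in the sources used here. The study describes independent experiments and used a paired test for single genes of the RNASeq data, but its genome-wide model had no block, and the labels do not say that a replicate number marks an experiment. Deviations from the group means correlated at 0.266 on average over 45 same-numbered pairs (0.055 to 0.516, 43 of 45 over 0.1) and at −0.132 between different numbers, and all 18 libraries correlated best with their own number. The fit without a block is the main one. Calls that changed with the block are given by gene in some cases and otherwise as counts. The labels and methods do not say whether cultures shared mice, so p-values measure the spread between these libraries.

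Symbols and positions were taken from a RefSeq table (GRCm38.p6), which named 25035 of 28096 identifiers. Counts passing filterByExpr (14161 genes) were fitted with edgeR 4.0.16 in R 4.3.3 (TMM, 1 term per group, quasi-likelihood F test, Benjamini-Hochberg over all genes tested). Standard errors are the log2 fold change over the square root of F. Levels are RPKM computed from counts, widths and TMM-scaled totals. The residual degrees of freedom were 12 and the biological coefficient of variation 10.1%, and counts give no precision beyond counting error within a library. Interactions were contrasts of the same fit. The 35 genes and the lists were chosen with earlier results of these data known. Values in every library are given at least for the 6 largest rises and falls with either stimulus in WT cells, genes differing over 1 (log2) between stimuli, and the leading isozyme of each family at rest. Windows of 50 bases shared between genes were counted over GENCODE M21 transcripts. Alternatives were DESeq2 1.42.0, limma 3.58.1 with voom, RLE and total count normalization, other filters, a replicate block, only the groups compared, and each library left out. In simulated data for anti-IgM in WT cells (14161 genes, 200 changed), the edgeR fit found 57.1% of genes changed by 0.5 on the log2 scale, 81.8% at 1 and 97.2% at 2, with 16 false genes. Far fewer genes were changed there than the 64.6% called in the data, and the Benjamini-Hochberg cutoff depends on that share. The simulated rates therefore need not hold for the real comparison. Some listed genes are not reported here by name.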

Additional observations from a re-analysis of the deposited data

How the results depend on the processing

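None of the 125 called values changed sign under any alternative, while 110 of the 238 that were not called did under at least 1. In WT cells after anti-IgM the number of genes that rose ranged from 16 to 19 with each library left out in turn and the number that fell from 9 to 11. The ranges after LPS were 11 to 13 and 10 to 10. In Ubqln1-/- cells they were 17 to 20 and 8 to 9 after anti-IgM, and 11 to 13 and 7 to 10 after LPS. The comparison of LPS with anti-IgM moved most. In WT cells the number higher with LPS (1) ranged from 1 to 2 with a library left out, being 2 without WT LPS replicate 2 or 3, and the number lower (11) from 5 to 12. In Ubqln1-/- cells the number higher (2) ranged from 1 to 2, being 1 without KO anti-IgM replicate 1 or 3, and the number lower (10) from 5 to 11. All these numbers count genes gained as well as genes kept, and Hk2 also lost its call in Ubqln1-/- cells without KO LPS replicate 2. The genotype comparisons and the differences of responses called 0 genes with each library left out.

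With the replicate number as a block, 4 genes were higher with LPS than with anti-IgM in WT cells and 7 in Ubqln1-/- cells, and 15 and 14 were lower. Against resting cells the block gave 19 up and 11 down for anti-IgM and 14 and 10 for LPS in WT cells, 21 and 9 and 15 and 10 in Ubqln1-/- cells. No call was lost with the block, and 24 were gained over all comparisons, 0 of them between genotypes or between responses. Over all genes the block called 49, 94 and 125 genes between genotypes in resting, anti-IgM-treated and LPS-treated cells, DESeq2 called 32, 47 and 51, and the fit without a block 8, 14 and 6.

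The deposited RPKM values were 0.838 to 0.891 of those computed here, so 128 group levels moved by more than 1 SD, and shares of counts rather than of RPKM moved 80 of 162 isozyme shares by more than 1 SD. The cause of the changed calls was not tested. Low counts limit Ldhb, Pdk4, Hk3 and Slc16a3.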

Other observations

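Neighbouring gene lists were read in the same comparisons. All 8 genes listed for the pentose phosphate pathway, which makes NADPH and ribose from glucose-6-phosphate, were tested, and 3 rose and 2 fell after anti-IgM in WT cells (32.4% and 32.2% of all tested genes), and 5 rose and 1 fell after LPS (31.2% and 30.1% of all). *Tkt*, transketolase, went from a mean of 114 RPKM at rest to 225 after anti-IgM (log2 fold change 0.98, edgeR adjusted p = 3.85e-08) and 159.9 after LPS (log2 fold change 0.48, edgeR adjusted p = 0.000101). *Pgd*, the dehydrogenase of 6-phosphogluconate, rose by 0.73 and 0.69 on the log2 scale. *H6pd*, which acts in the endoplasmic reticulum in place of the cytosolic enzyme, fell by 0.85 and 0.98. Of 16 genes of the TCA cycle, 8 rose and 3 fell after anti-IgM and 8 rose and 2 fell after LPS, against the same shares of all genes. The subunits of isocitrate dehydrogenase went separate ways: *Idh3a* went from a mean of 20.8 RPKM to 41.9 and 48.4 (log2 fold changes 1.01 and 1.21, edgeR adjusted p = 1.04e-07 and 2.72e-08), while *Idh3g* fell by 0.28 and 0.21 on the log2 scale.

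Of 9 regulators of the pathway, 3 rose and 5 fell after anti-IgM and 2 rose and 5 fell after LPS in WT cells, against 32.4% and 32.2% of all tested genes for anti-IgM and 31.2% and 30.1% for LPS. *Txnip*, whose product limits glucose uptake and is itself induced by glucose, went from a mean of 191 RPKM at rest to 71.0 after anti-IgM (log2 fold change −1.43, edgeR adjusted p = 7.2e-09) and 122 after LPS (log2 fold change −0.65, edgeR adjusted p = 4.67e-05). *Hif1a* changed by 0.17 (edgeR adjusted p = 0.0396) and 0.14 (edgeR adjusted p = 0.097). *Mlxip*, which encodes a glucose-sensing transcription factor, fell by 0.34 after anti-IgM and rose by 0.21 after LPS on the log2 scale. None of the genes of these 3 lists differed between genotypes at an adjusted p under 0.05 in edgeR, in any condition.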
